A study of Rattus norvegicus with 9 samples.

Results

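Fragments of the nuclear tRNAs for threonine (Thr), valine (Val), phenylalanine (Phe) and glutamine (Gln) were examined in pancreatic islets of LP-exposed and CD-exposed rats. They were found by their host: a row of the deposited table was taken when its host tRNA was a nuclear tRNA for one of these amino acids, and each sequence was kept once. This gave 14 tRNA-derived fragments (tRFs) of the 192 in the table, with 4 each from Thr, Val and Phe tRNAs and 2 from a Gln tRNA. The LP group was the islets of 4 male Sprague Dawley rats aged 22 days whose mothers ate a low-protein diet (5.3% protein) while pregnant and nursing, and the CD group was the islets of 5 rats of the same strain, sex and age whose mothers ate a chow diet (16.8% protein). No animal of either group carried a genetic change, and the labels and the study's methods give the fat and carbohydrate content of the diets the opposite way round. The labels list 1 rat per library and do not say which rats, if any, came from the same litter, so the errors given here cover the spread between these libraries only. The table holds only tRFs that the authors had called as changed between LP and CD, so each LP to CD difference below is a description of a selected tRF and its adjusted p-value is not independent evidence. The table holds no messenger RNA, so neither islet markers nor markers of other pancreatic cells could be read from it.

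A tRNA folds into a cloverleaf with an acceptor stem that joins its 5′ and 3′ ends, a D arm, an anticodon arm and a T arm, and a CCA end is added to its 3′ end before the amino acid is attached. Nucleases cut mature tRNAs at preferred places. Angiogenin, a ribonuclease released from its inhibitor in stressed mammalian cells, cuts in the anticodon loop and leaves a 5′ and a 3′ piece that are known as tiRNAs, and other enzymes cut in the D and T arms and leave shorter tRFs. Threonine, valine and phenylalanine are essential amino acids that rats take from the diet, and glutamine can be made in the body. In whole islets, fewer cells that hold a tRF and less of the tRF in each cell cannot be told apart.

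The sequences below are those on which the results turn, written 5′ to 3′ with T for U as in the deposited table. Names give the host tRNA followed by the number of nucleotides (nt). Capitals mark the anticodon in the fragments that begin at the 5′ end of the tRNA, and in the others the letters GTTCGA, which are the last base of the T stem and the first bases of the T loop. tRNA-Thr-TGT 22 stops before these letters are complete and has no capitals.
tRNA-Thr-AGT 41a: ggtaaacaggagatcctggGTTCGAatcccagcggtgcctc
tRNA-Thr-AGT 41b: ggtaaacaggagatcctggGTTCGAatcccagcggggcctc
tRNA-Thr-CGT 40: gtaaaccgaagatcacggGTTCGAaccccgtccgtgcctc
tRNA-Thr-TGT 22: gtaaaccaggggtcgcgagttc
tRNA-Val-TAC 54: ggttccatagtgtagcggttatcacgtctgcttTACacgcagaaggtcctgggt
tRNA-Val-TAC 26: agaaggtcctggGTTCGAgccccagt
tRNA-Val-AAC/tRNA-Val-CAC 32: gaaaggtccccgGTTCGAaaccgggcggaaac
tRNA-Phe-GAA 30: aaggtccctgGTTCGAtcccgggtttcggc
tRNA-Gln-CTG 41: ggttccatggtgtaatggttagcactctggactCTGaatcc

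The other 5 tRFs lie within or overlap these. tRNA-Phe-GAA 29 and tRNA-Phe-GAA 28 lack 1 and 2 bases at the 5′ end of tRNA-Phe-GAA 30, and tRNA-Phe-GAA 19 is contained in tRNA-Phe-GAA 29. tRNA-Gln-CTG 36 is the first 36 bases of tRNA-Gln-CTG 41. The last 30 bases of tRNA-Val-AAC/tRNA-Val-CAC 34 are the first 30 bases of the 32-nt tRF of the same hosts. These tRFs share bases, so the 4 Phe tRFs are not 4 separate pieces of evidence. None of the 14 lay within a tRF of another host in the table or contained one.

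The position of each tRF was read from the sequences themselves. In tRNA-Val-TAC 54 the anticodon TAC lay at bases 34 to 36, between 5 bases on each side that pair as the anticodon stem. The last 14 bases of this tRF are the first 14 of tRNA-Val-TAC 26, and joined they give 66 bases in which the T loop begins 20 bases after the first base of the anticodon. With this spacing used for every host, and the first anticodon base set at position 34, all 4 Thr tRFs begin in the anticodon. The spacing could be read in tRNA-Val-TAC only, and positions placed from the T loop in other hosts rest on it. The tRFs of tRNA-Thr-AGT begin at position 34 and those of tRNA-Thr-CGT and tRNA-Thr-TGT at position 35. Their 3′ ends differ: the 41-nt and 40-nt tRFs reach position 74, the first base of the CCA end, and tRNA-Thr-TGT 22 stops at position 56 in the T loop. The 7 tRFs from Phe tRNA and from the 3′ part of Val tRNAs begin at positions 37 to 45, past the anticodon. The 3 longest Phe tRFs end at position 72, the last base of the acceptor stem. tRNA-Val-TAC 54 and both Gln tRFs begin at position 1. tRNA-Gln-CTG 36 ends with the last base of its anticodon (CTG, bases 34 to 36), and tRNA-Gln-CTG 41 goes on for 5 bases into the loop and stem.

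**Figure D1:**
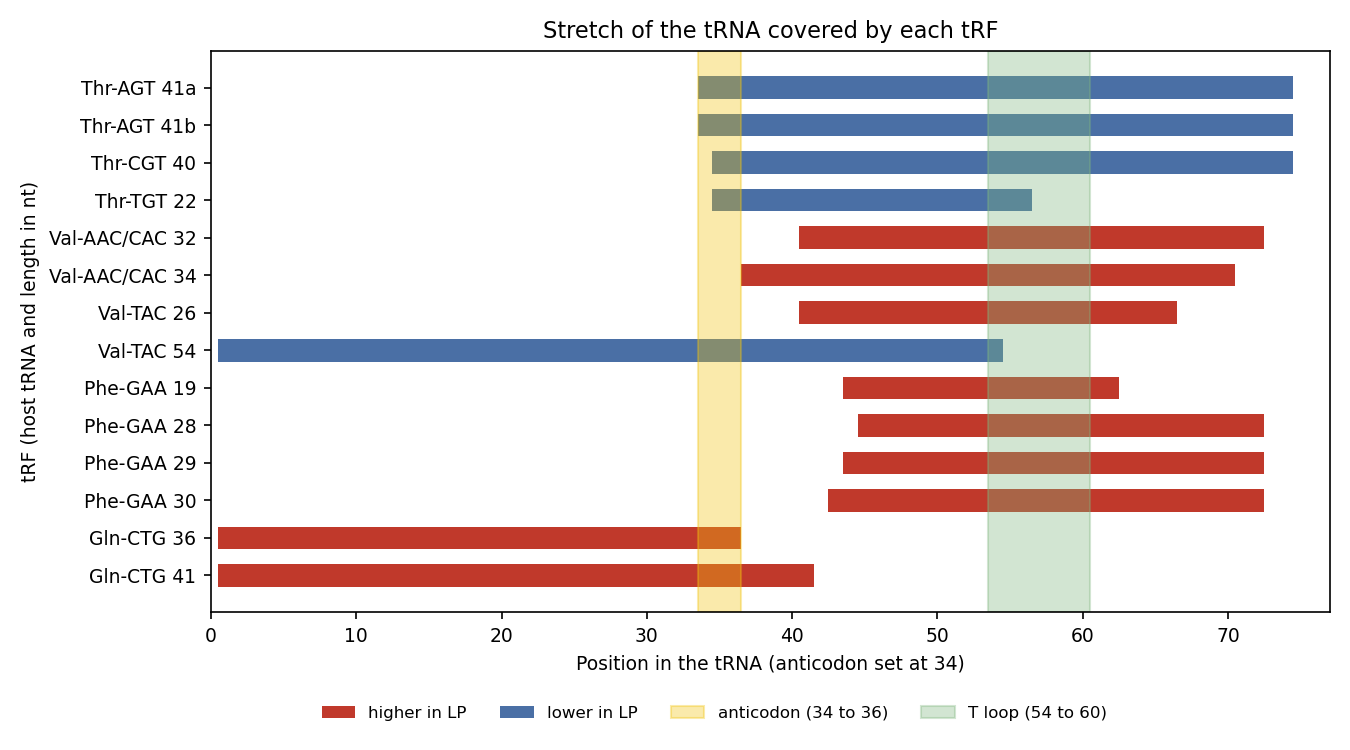
Stretch of the tRNA that each tRF covers, by position in the tRNA with the first anticodon base at 34; each bar is 1 tRF, red where it was higher and blue where it was lower in LP, with the anticodon and the T loop shaded. The 4 Thr tRFs, all lower in LP, begin in the anticodon, and the 7 tRFs that begin past it at positions 37 to 45 were higher in LP.

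A complete T arm, taken as a 7-base loop with at least 4 of 5 stem pairs, was present in 9 of the 14 tRFs, and in 77 of the other 178 tRFs of the table. None of the 14 ended in CCA, as 79 of the other 178 did. Both tRFs of tRNA-Thr-AGT begin with GGT where the anticodon is AGT, a difference of A1G counted from the first base of the anticodon. As background, that A is converted to inosine in eukaryotic tRNAs of this kind, and reverse transcription reads inosine as G. The 2 tRFs differ from each other by 1 base, T36G from 41a to 41b counted from the 5′ end. The sequences were not aligned to the genome, so the number of genes that carry each of them is not known. RefSeq's annotation of the rat assembly GRCr8 names 35 genes for tRNA-Thr-AGT, 4 for tRNA-Thr-CGT, 5 for tRNA-Thr-TGT, 43 for tRNA-Val-AAC, 9 for tRNA-Val-CAC, 6 for tRNA-Val-TAC, 8 for tRNA-Phe-GAA and 11 for tRNA-Gln-CTG. The study's genome build is not given in the sources used here, so no coordinates are printed.

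Over the table the libraries held 12556 to 40166 counts in LP and 26166 to 34775 counts in CD. The 14 tRFs made up 4.90% ± 0.87 (SD, n = 4) of these counts in LP and 1.76% ± 0.60 (SD, n = 5) in CD, with a range of 3.63% to 5.61% in LP and of 0.837% to 2.30% in CD. The whole here is the selected tRFs only, and 102 of the 181 tested were called lower in LP. This share therefore also moves with the other selected tRFs. Summed over the 14, the mean normalized read count in LP was 1.53 times that in CD. Levels below are normalized read counts, that is, each library's raw counts over the size factor that the authors used for it. A log2 fold change is LP over CD, with its standard error (SE), from edgeR's quasi-likelihood test over the whole table, and a tRF was called at a 2-fold change and an adjusted p of 0.05.

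All 14 tRFs passed the filter on low counts and all were called. Higher in LP were 9 of 14, where 41.4% of the 181 tRFs tested from the table were called higher, and lower in LP were 5 of 14, where 56.4% of the table were called lower. All 4 Thr tRFs were lower in LP, all 4 Phe and both Gln tRFs were higher, and of the Val tRFs 3 were higher and 1 was lower. Direction also went with length over the whole table. Of the tRFs of 25 to 40 nt, 7 of 8 from these hosts were called higher in LP, as were 58 of the 74 others tested, and of those over 40 nt, 3 of 4 from these hosts were called lower, as were 27 of the 27 others tested. Of the tRFs of 16 to 24 nt, 54 of the 66 others tested were called lower and 8 higher. The 2 from these hosts split, with tRNA-Thr-TGT 22 lower and tRNA-Phe-GAA 19 higher. Host and length cannot be told apart in so few tRFs. The levels of the LP and CD rats did not overlap for 10 of 14, and 76.6% of the table's 192 tRFs had such levels. The 4 that overlapped were tRNA-Val-TAC 54, tRNA-Phe-GAA 19 and both Gln tRFs. These levels depend on the size factors. In raw counts, the groups also overlapped for tRNA-Thr-AGT 41b, tRNA-Thr-TGT 22, tRNA-Phe-GAA 28 and tRNA-Phe-GAA 29.

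**Figure D2:**
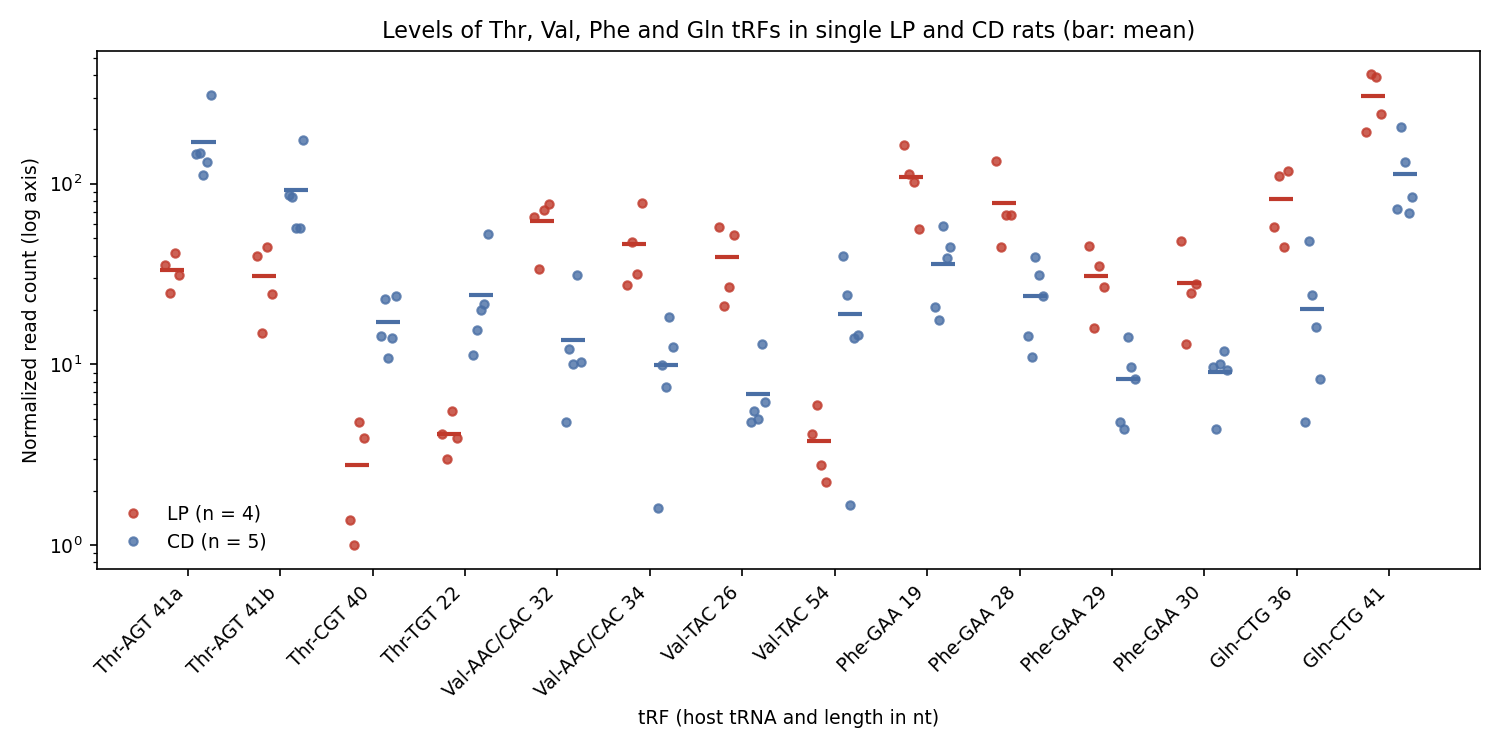
Normalized read count (log axis) of each of the 14 tRFs in single rats, with LP in red to the left of CD in blue and a bar at each group mean. The 4 LP rats lie below the 5 CD rats for all 4 Thr tRFs, and tRNA-Gln-CTG 41 has the highest mean of the 14 in LP, at 307.

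Threonine tRNAs gave the only amino acid of the 4 with every tRF lower in LP. The most abundant Thr tRF, tRNA-Thr-AGT 41a, is the 3′ part of its tRNA from the anticodon on. It had 35.6, 24.9, 41.3 and 31.2 normalized read counts in LP 1 to LP 4, against 146, 148, 112, 133 and 311 in CD 1 to CD 5. Each LP rat was below each CD rat, and CD 5 stood far above the other CD rats. The means were 33.2 ± 6.93 (SD, n = 4) in LP and 170 ± 80.2 (SD, n = 5) in CD, a log2 fold change of -2.35 ± 0.44 (SE, adjusted p = 0.00178 over the table).

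tRNA-Thr-AGT 41b, which differs from 41a by the single base T36G, had 39.7, 15.0, 44.7 and 24.5 normalized read counts in LP 1 to LP 4, against 86.4, 84.8, 56.5, 57.2 and 175 in CD 1 to CD 5. The groups did not overlap, and CD 5 was again the highest. Its log2 fold change was -1.57 ± 0.49, close to the median of -1.49 over the table, and its call was lost with TMM scaling over the table (-0.94, edgeR adjusted p = 0.0811) and with DESeq2 when its size factors came from the table (-0.76, adjusted p = 0.157). The ratio of both tRFs within a library needs no scaling. Counts of 41b were 1.12, 0.600, 1.08 and 0.786 times those of 41a in LP 1 to LP 4, against 0.593, 0.575, 0.504, 0.431 and 0.561 times in CD 1 to CD 5. Each LP rat was above each CD rat, though LP 2 lay near CD 1, so in these libraries 41a was further below its CD level than 41b was.

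The other Thr tRFs were near the lower end of what was counted. tRNA-Thr-CGT 40, also a 3′ part from the anticodon to the CCA end, had 1, 1, 7 and 7 counts in LP 1 to LP 4, against 9 to 23 counts in the CD libraries. The mean level was 2.77 ± 1.88 (SD, n = 4) in LP and 17.2 ± 5.85 (SD, n = 5) in CD, a log2 fold change of -2.46 ± 0.46. tRNA-Thr-TGT 22, the short Thr tRF that stops in the T loop, had 4.13 ± 1.04 in LP and 24.2 ± 16.5 in CD, a log2 fold change of -2.51 ± 0.50. CD 5 was the highest here as well, at 52.7, with the other CD rats at 11.2 to 21.6. Neither group overlapped the other in normalized counts for these tRFs. For tRNA-Thr-TGT 22 this rests on the size factors, as LP 3 had 8 raw counts and CD 1 had 7.

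The mitochondrial tRNAs for the same amino acids serve translation inside mitochondria. Of these only mt-tRNA-Thr had tRFs in the table, 2 in number, and both were called lower in LP. Both are over 40 nt. At that length all 27 tested tRFs from outside the nuclear Thr, Val, Phe and Gln tRNAs, these 2 included, were called lower. The direction of these 2 thus cannot be told apart from that of long tRFs in the table. mtRNA-Thr-TGT 52 averaged 499 ± 295 normalized read counts in LP and 2003 ± 1130 in CD, and mtRNA-Thr-TGT 51 averaged 7.05 ± 2.94 in LP and 41.3 ± 24.5 in CD (SD, n = 4 and n = 5). Their log2 fold changes were -2.004 ± 0.57 and -2.48 ± 0.55. The nuclear Thr tRFs lay between -2.51 and -1.57. No difference between nuclear and mitochondrial Thr tRFs was tested.

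Valine tRNAs gave tRFs in both directions, and the direction differed between pieces of the same host. tRNA-Val-TAC 26, which begins in the anticodon stem at position 41 and holds the whole T arm, had 57.6, 20.9, 26.8 and 51.7 normalized read counts in LP 1 to LP 4, against 4.801, 5.50, 4.99, 12.9 and 6.20 in CD 1 to CD 5. Every LP rat was above every CD rat. The log2 fold change was 2.48 ± 0.46 (adjusted p = 0.00178 over the table), the largest size of the 9 tRFs that were higher, under each of the 3 scalings.

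tRNA-Val-TAC 54 is the piece from position 1 through the anticodon to the first base of the T loop, and shares 14 bases with tRNA-Val-TAC 26. It had 4.11, 5.98, 2.75 and 2.23 normalized read counts in LP 1 to LP 4, against 40.01, 24.2, 1.66, 14.0 and 14.5 in CD 1 to CD 5. CD 3, with 2 counts, was below all LP rats, so the groups overlapped, and the LP values rest on 3 to 6 counts a library. The log2 fold change was -2.31 ± 0.66, and without CD 1, the highest library, it was -1.87 (edgeR without the filter on low counts, adjusted p = 0.0139), a fit added after seeing the data. Within libraries, the counts of tRNA-Val-TAC 26 were 14.0, 3.50, 9.75 and 23.25 times those of tRNA-Val-TAC 54 in LP 1 to LP 4, against 0.120, 0.227, 3.00, 0.923 and 0.429 times in CD 1 to CD 5. The shorter 3′ piece outnumbered the longer 5′ piece in each LP rat and in 1 of 5 CD rats. The authors' selection of tRFs in opposite directions bears on this ratio too.

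**Figure D3:**
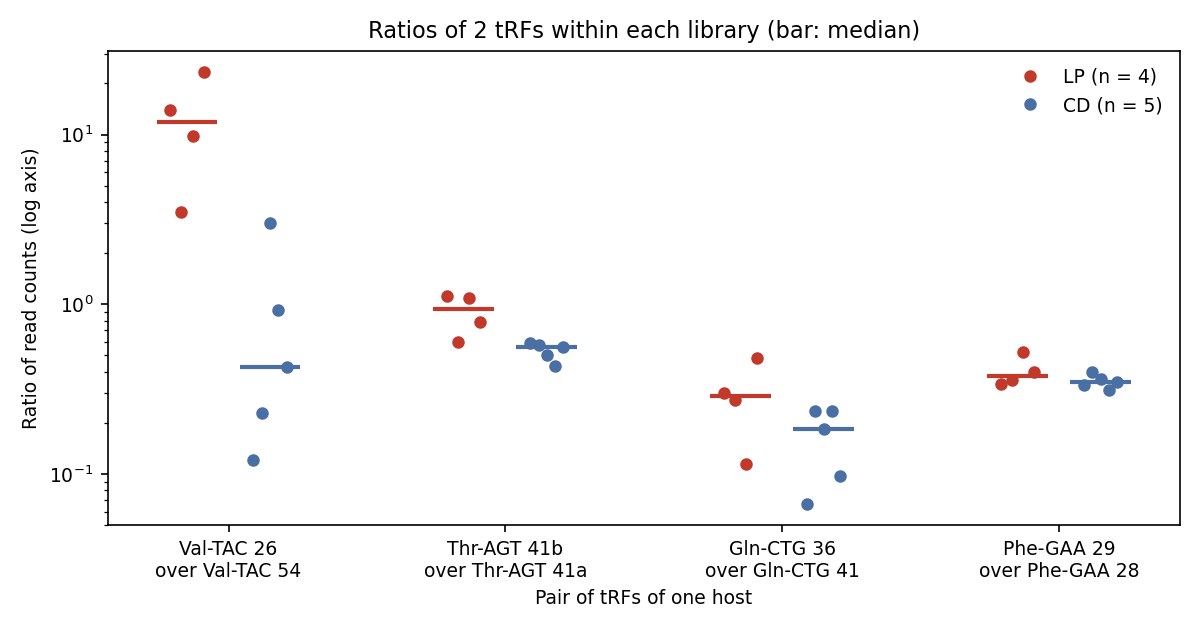
Ratio of the read counts of 2 tRFs of one host within each library (log axis), with LP in red to the left of CD in blue, 1 point per rat and a bar at each median. For tRNA-Val-TAC 26 over tRNA-Val-TAC 54 the LP rats lie at 3.50 to 23.25 and the CD rats at 0.120 to 3.00; the Gln and Phe ratios overlap between the groups.

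The tRFs that tRNA-Val-AAC and tRNA-Val-CAC share cannot be assigned to either host. The 32-nt tRF, which spans positions 41 to 72, had 65.8, 33.9, 71.6 and 76.8 normalized read counts in LP 1 to LP 4, against 4.801, 12.1, 9.98, 31.3 and 10.3 in CD 1 to CD 5. CD 4 came close to LP 2, and the groups did not overlap. Its log2 fold change was 2.16 ± 0.51. The 34-nt tRF, which begins 4 bases earlier and ends 2 bases earlier, had 46.2 ± 22.9 (SD, n = 4) in LP and 9.95 ± 6.17 (SD, n = 5) in CD, a log2 fold change of 2.19 ± 0.52. The ratio of the 34-nt to the 32-nt tRF ran from 0.417 to 1.41 in LP and from 0.333 to 1.20 in CD, so the balance of both ends overlapped between the groups.

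Phenylalanine tRFs came from a single stretch around the T arm of tRNA-Phe-GAA, and all 4 were higher in LP. tRNA-Phe-GAA 19, which stops just past the T loop, was the most abundant of them. It had 163, 114, 103 and 56.2 normalized read counts in LP 1 to LP 4, against 20.8, 17.6, 58.2, 38.8 and 44.4 in CD 1 to CD 5. LP 4 was just below CD 3, so the groups overlapped, and the log2 fold change was 1.58 ± 0.46.

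tRNA-Phe-GAA 28, which runs from position 45 to the end of the acceptor stem, had 134, 44.9, 66.8 and 67.3 normalized read counts in LP 1 to LP 4, against 14.4, 11.01, 39.1, 31.3 and 23.8 in CD 1 to CD 5. Each LP rat was above each CD rat, with LP 1 the highest, as it was for all 4 Phe tRFs. The log2 fold change was 1.69 ± 0.48. tRNA-Phe-GAA 29 and tRNA-Phe-GAA 30, which begin 1 and 2 bases earlier, had log2 fold changes of 1.83 ± 0.44 and 1.62 ± 0.43. Their means were 30.7 ± 12.4 and 28.4 ± 14.5 in LP (SD, n = 4), against 8.26 ± 3.98 and 9.03 ± 2.77 in CD (SD, n = 5).

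The share of each Phe tRF in the family overlapped between the groups. The 4 tRFs together had 246 ± 98.7 normalized read counts in LP and 77.2 ± 33.8 in CD. tRNA-Phe-GAA 19 made up 31.6% to 60.6% of them in LP and 41.9% to 51.8% in CD. The counts of tRNA-Phe-GAA 29 were 0.337 to 0.526 times those of tRNA-Phe-GAA 28 in LP and 0.310 to 0.400 times in CD. No shift between the longer and shorter Phe tRFs was detectable at these counts.

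Glutamine tRFs were the 5′ part of tRNA-Gln-CTG, from its first base to the anticodon or just past it. tRNA-Gln-CTG 41, at 193, 404, 389 and 244 normalized read counts in LP 1 to LP 4, against 72.0, 206, 131, 69.0 and 84.7 in CD 1 to CD 5, had the highest mean in LP of the 14 tRFs. CD 2 was above LP 1, so the groups overlapped. The log2 fold change was 1.45 ± 0.44, the smallest size of the 14 with these size factors. Of the 35 tRFs over 40 nt in the table, 31 were tested, and it was the only one called higher in LP, with 30 called lower. At 41 nt it lies at the lower limit of this length class, as do both tRFs of tRNA-Thr-AGT, which were lower.

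tRNA-Gln-CTG 36, which ends with the anticodon, had 57.6, 111, 44.7 and 118 normalized read counts in LP 1 to LP 4, against 4.801, 48.4, 24.1, 16.2 and 8.26 in CD 1 to CD 5. CD 2 was above LP 3, and the CD values ran from 3 to 44 counts. The log2 fold change was 2.003 ± 0.58. It was 2.59 without CD 2, which was the highest CD library for both Gln tRFs. Counts of the 36-nt tRF were 0.115 to 0.484 times those of the 41-nt tRF in LP and 0.0667 to 0.235 times in CD, and the groups overlapped.

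Set in order of the mean level in LP, the hosts ran from tRNA-Gln-CTG over tRNA-Phe-GAA and the Val tRNAs to the Thr tRNAs, with 390 ± 112, 246 ± 98.7, 151 ± 42.7 and 71.1 ± 22.6 summed normalized read counts (SD, n = 4). In CD the Thr tRFs led, at 303 ± 147, with Gln at 133 ± 74.6, Phe at 77.2 ± 33.8 and Val at 49.4 ± 18.9 (SD, n = 5). In LP the single rats overlapped between Gln (251 to 514) and Phe (178 to 391) and between Phe and Val (109 to 209), and Thr (43.9 to 96.4) lay below Val. In CD each host overlapped the next in order, with Thr at 199.5 to 562, Gln at 76.8 to 254, Phe at 37.4 to 121 and Val at 24.1 to 76.6. All 14 tRFs summed to 859 ± 35.03 in LP and 563 ± 140 in CD. These sums hold only tRFs that the authors selected as changed between LP and CD. Both orders, and the place of Thr in each, describe those tRFs and not all fragments of a host. Adaptor ligation and reverse transcription differ between sequences, so a higher read count does not show that more molecules were present.

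The sizes depend on how the libraries were scaled, as the table holds selected tRFs only. TMM scaling over the table moved the median log2 fold change of the table from -1.49 to -0.79, and DESeq2 with size factors from the table moved it to -0.72. The falls of the Thr tRFs and of tRNA-Val-TAC 54 were smaller and the rises larger under both, and all 14 kept their direction. With TMM the log2 fold changes were 2.07 to 3.12 for the 9 that were higher and -1.94 to -0.94 for the 5 that were lower. DESeq2 called 76 tRFs higher and 61 lower over the table with the table's own size factors, and 76 higher and 112 lower with those of the authors. edgeR called 76 higher and 71 lower with TMM, and 75 higher and 102 lower with the authors' size factors.

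**Figure D4:**
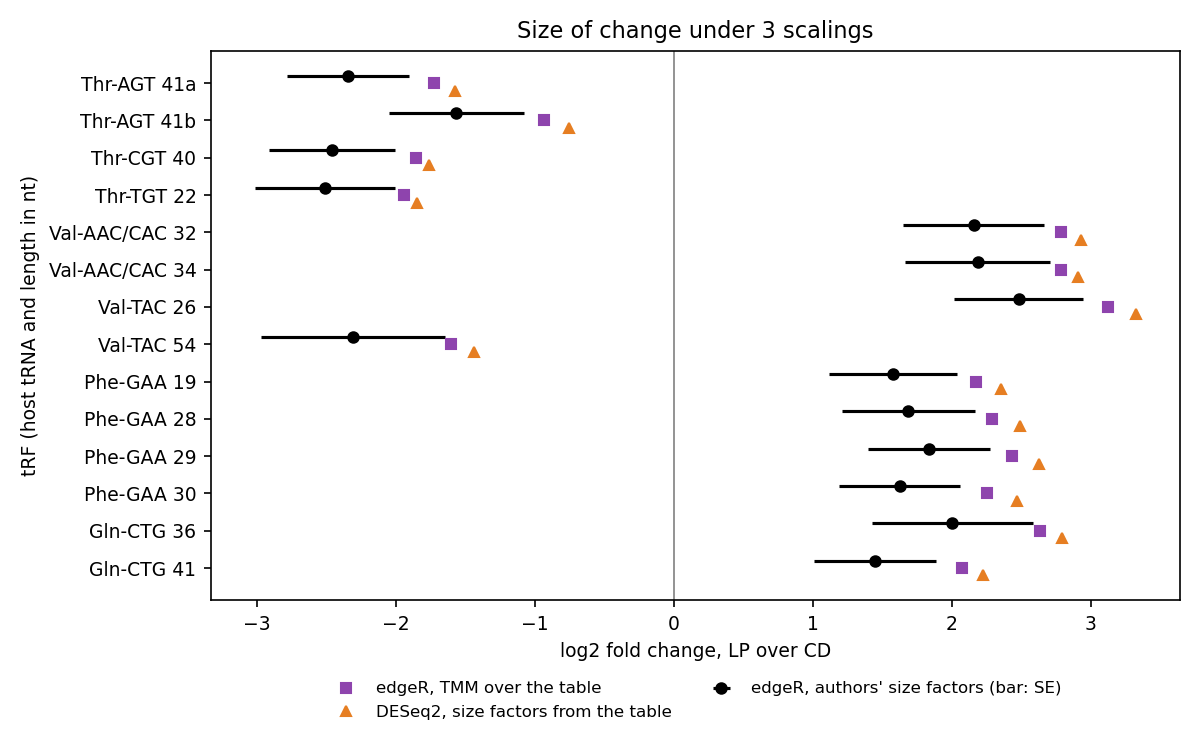
log2 fold change of LP over CD for each of the 14 tRFs under 3 scalings of the libraries: black points with SE bars are edgeR with the authors' size factors, purple squares edgeR with TMM over the table, and orange triangles DESeq2 with size factors from the table. All 14 keep their side of 0, and tRNA-Thr-AGT 41b comes nearest to it, at -0.76.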

How the data were processed

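Small RNA libraries were made from total RNA of handpicked islets after a treatment that frees blocked RNA ends and removes several base methylations. The authors annotated tRFs with tRNAscan-SE as used for GtRNAdb and with mitotRNAdb, required at least 2 reads in individual samples and used DESeq2. FastQC is named in the submitters' processing notes. For the aligner, genome build and molecular tags, details were not given in the sources used here.

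Unscaled whole-number counts per library fill 255 rows of the deposited table. A second set of deposited columns, headed as normalized counts, was read from its values as the authors' variance-stabilised log2 values. Size factors recovered from them left residuals of at most 5.72e-05 and ran from 0.625 to 1.80. Columns with the authors' fold change, adjusted p-value and direction were not used.

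Rows were collapsed by sequence to 192 tRFs. All were fitted with edgeR 4.0.16 (R 4.3.3) with the authors' size factors and a minimum count of 10, with Benjamini-Hochberg adjustment over the 181 tested. Each SE is the absolute log2 fold change over the square root of edgeR's F. The script was tested on simulated data. DESeq2 1.42.0, TMM, no filter, 4-fold, a replicate block and leaving out each library were alternatives. Every tRF of the 4 amino acids was named. The members, lists and length classes were chosen with earlier results of these data known. Letters a and b follow the mean level. Whether the counts are reads or tagged molecules was not settled, and the spread between libraries also holds counting error.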

Additional observations from a re-analysis of the deposited data

Results flagged for a closer look

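LP and CD values of each of the 14 tRFs and of their sum, 30 sets in all, were screened for a rat set apart from the rest of its group by a gap larger than Dixon's limit. For independent sets of normally distributed values, chance alone gives about 1 such set in 20, or 1.5 of 30. Here 5 were found, all of them in CD. The sets share rats and bases and hold unlogged counts, so the 5 cannot be weighed against the 1.5. CD 5 was far above the other CD rats for 3 Thr tRFs. tRNA-Thr-AGT 41a stood at 311 normalized read counts there, with 112 to 148 in the others (a gap of 0.822 of the range). tRNA-Thr-AGT 41b stood at 175, with 56.5 to 86.4 in the others, and tRNA-Thr-TGT 22 at 52.7, with 11.2 to 21.6. CD 4 was far above the other CD rats for 2 Val tRFs. tRNA-Val-AAC/tRNA-Val-CAC 32 stood at 31.3, with 4.801 to 12.1 in the others, and tRNA-Val-TAC 26 at 12.9, with 4.801 to 6.20 (a gap of 0.828 of the range), which is 12 counts beside 3 to 6. No cause was tested.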

How the results depend on the processing

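No tRF of the 14 changed direction under any fit, and 316 of 318 of their fold changes under an alternative stayed on the same side of the threshold. The 2 exceptions were those of tRNA-Thr-AGT 41b with TMM and with size factors from the table. For all 14, the 318 include fits with 1 library left out and no filter, which were added after seeing the data. These nearly repeat the filtered fits, so the 318 are not separate checks. Fits in which tRNA-Val-TAC 54 fell to the filter are not among them. At 4-fold, 4 of the 14 were higher and 4 lower in LP, and 31 and 46 over the table. DESeq2 called 61 lower over the table with size factors from the table and 112 with those of the authors, where edgeR called 102 with those of the authors. Under TMM the summed 14 tRFs differed by 647 normalized read counts, LP minus CD, against 296 with the authors' size factors and 264 to 351 when single libraries were left out. Leaving out each library gave 9 higher and 4 to 5 lower of the 14, since tRNA-Val-TAC 54 fell to the filter without CD 1, CD 2, CD 4 or CD 5, and its fits without the filter were added after seeing the data. Deviations of same-numbered rats did not run together (correlations of -0.40 to 0.08 over 4 numbers). With the replicate block 9 of the 14 were higher and 5 lower, and 75 and 101 over the table.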

Other observations

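The most abundant tRF of each amino acid was set beside the tRFs of other hosts by its pattern over the 9 libraries, as the root mean square difference of log2(normalized count + 1) after centring each on its own mean. Nearest to tRNA-Thr-AGT 41a was tRNA-Gly-CCC 19, at 0.32, followed by tRNA-Leu-CAA/tRNA-Leu-CAG 18c at 0.36. Nearest to tRNA-Phe-GAA 19 were tRNA-Glu-CTC/tRNA-Glu-TTC 30b at 0.28 and tRNA-Glu-CTC/tRNA-Glu-TTC 29b at 0.34. tRNA-Gln-CTG 41 came closest to mtRNA-Asn-GTT 39 at 0.40 and tRNA-Lys-CTT 39 at 0.44. tRNA-Val-AAC/tRNA-Val-CAC 32 had no such close neighbour, with tRNA-Gly-CCC 36 and tRNA-Asp-GTC 29b both at 0.56. tRNA-Gly-CCC 19 and mtRNA-Asn-GTT 39 did not pass the filter on low counts. Each of these patterns includes the LP to CD difference on which the authors selected the tRFs.

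Among tRFs of other nuclear hosts with a recognisable T loop, leaving out Leu and Ser tRNAs with their long variable arm, the start was placed by the same spacing from the T loop. This comparison was chosen after the data were seen. Of those that began 3 or more bases after the first anticodon base 43 of 57 were called higher in LP, as were 7 of 7 of the Thr, Val, Phe and Gln tRFs. Of those that began 0 to 2 bases after it 3 of 5 were called higher and 2 of 5 lower, and 4 of 4 Thr tRFs were lower. Of those that began before the anticodon 12 of 12 tested were called lower, where 2 of 3 of the Thr, Val, Phe and Gln tRFs, both from tRNA-Gln-CTG, were called higher and tRNA-Val-TAC 54 lower. These 3 hold no complete T loop and were placed by their own anticodon. The 12 of other hosts all run from before the anticodon into the T loop. Pieces of other hosts that stop before the T loop were not placed. The 12 and the 3 are thus unlike classes, and their shares cannot be set against each other. No difference between these shares was tested.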
